A study of Mus musculus with 23 samples.

Results

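The 10 genes described here encode ETS transcription factors other than PU.1: Erg, Fli1, Ets1, Ets2, Etv2, Etv6, Elk3, Elf1, Elf4 and Gabpa. They were taken by name from 20145 mouse genes that the arrays measured, and each was followed through the probe with the highest mean among probes whose RefSeq accession maps to its symbol. All 10 were among the 15202 genes that reached 6.5 in log2 intensity on 1 array or more, and all 10 representing probes were well above background on every array. The members were measured in mouse ES cell-derived blood cell development, in which the fusion protein RUNX1-ETO could be switched on with doxycycline (Dox), to ask how its effect depends on the stage of the cell. RUNX1-ETO is the product of the t(8;21) translocation of human acute myeloid leukaemia and joins the DNA-binding part of RUNX1 to ETO, a protein encoded by the mouse gene Runx1t1.

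ETS factors share a DNA-binding domain that recognises a GGAA core, and several of them act in the endothelium and in blood cells at the same time. ERG and FLI1 are close relatives that help to maintain endothelium, haematopoietic stem cells and megakaryocytes, and they bind next to RUNX1, GATA2 and SCL/TAL1 at many blood cell enhancers. ETV2 acts earlier, in the specification of endothelial and blood precursors, and ETV6 is a repressor needed by blood stem cells. GABPA, with its GABPB partners, serves many housekeeping promoters.

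Cells were A2lox ES cells with an HA-tagged human RUNX1-ETO complementary DNA under a Dox-responsive promoter, from picked colonies, with their own Runx1 intact. The labels give the strain as C57BL/6. Haemogenic endothelium (HE) was sorted as KIT+ Tie2+ CD41-, HE2 as KIT+ Tie2+ CD41+ and progenitors as KIT+ Tie2- CD41+, and these 3 stages received Dox at 0.1 µg per ml on day 1 of blast culture and were sorted on day 2. Myeloid progenitors were day 2 progenitors placed in expansion medium with SCF, Flt3 ligand and thrombopoietin, with or without Dox for 12 h, and collected on day 3. Tek, which encodes Tie2, and Itga2b, which encodes CD41, therefore served in the sort of the early stages, and no array of cells with Dox but without the transgene was analysed here. HE, HE2 and myeloid progenitors had 3 arrays each without and with Dox, labelled as biological replicates without more on their cultures. Progenitors had 2 arrays each, and a further array of uninduced progenitors, titled a technical replicate, was normalized but not fitted. The title of induced myeloid progenitor array 3 says biological and its description technical replicate, and without it the 3 members called with Dox at that stage were called too. RNA came from whole populations, so that fewer cells of a type and less RNA per cell cannot be told apart.

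The arrays lay on 3 slides. All myeloid progenitor arrays, induced progenitor array 2 and the additional array were on slide 3, which was scanned on another day, and the other arrays on slides 1 and 2. Runx1t1 probe intensity was higher on all induced arrays than on all uninduced ones at each stage, with means of 10.81, 9.88, 7.71 and 10.004 without and 12.05, 11.96, 11.67 and 12.06 with Dox along the stages. The log2 changes were 1.24 ± 0.33 (SE), 2.08 ± 0.33, 3.96 ± 0.41 and 2.06 ± 0.33 in that order. The probe was designed to the mouse gene, and how well it reads the human transgene was not tested. Mean log2 intensity over 5 endothelial markers (Tek, Cdh5, Kdr, Pecam1 and Emcn) ranged over arrays from 11.61 to 13.56 in uninduced HE, from 10.67 to 11.90 in HE2, from 9.79 to 9.87 in progenitors and from 9.59 to 10.26 in myeloid progenitors. With Dox it ranged from 12.01 to 13.34, from 12.14 to 13.18, from 11.27 to 11.58 and from 11.82 to 12.25. The ranges without and with Dox thus overlapped in HE and did not overlap in the other 3 stages. Mean log2 intensity over 6 erythroid markers was 8.99 to 9.12, 9.79 to 10.53, 11.90 to 12.27 and 15.22 to 15.65 along the stages without Dox, and 9.47 to 10.32, 10.81 to 11.29, 13.01 to 13.40 and 14.70 to 15.17 with it. It was thus highest in the cells labelled myeloid progenitors, and with Dox it lay higher without overlap in the 3 early stages and lower in the last. That over 6 myeloid markers was 7.85 to 8.68, 9.81 to 10.08, 11.30 to 11.35 and 10.63 to 11.09 without and 7.73 to 8.10, 8.43 to 8.85, 10.27 to 10.35 and 9.97 to 10.39 with Dox, lower without overlap in all stages but HE. Over 6 cardiac and smooth muscle markers it went from 11.19 to 12.11 down to 10.17 to 10.52 with Dox in HE and from 9.97 to 11.30 down to 8.72 to 8.98 in HE2, where 4 of the 6 were called down. Within this list Myl7 went the other way in HE, with means of 5.61 without and 6.77 with Dox. The ranges of the list overlapped in progenitors. In myeloid progenitors the list was higher with Dox, at 7.93 to 8.29 against 7.31 to 7.83. Mean log2 intensity over 5 mast cell markers, of which 3 were tested, lay higher with Dox at every stage. In myeloid progenitors it was 7.64 to 8.75 with and 6.07 to 6.36 without Dox. Hdc and Cpa3 were higher at every stage, with means there of 13.77 against 8.34 and 10.59 against 7.32. Ms4a2 was well above background on no array. Fcer1a was near background, and its mean was lower with Dox in all stages but progenitors. Cma1 was near background except in induced myeloid progenitors, at 6.38 against 5.33. The part of these cell types in the members' changes was not tested.

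RefSeq promoter windows of 300 bases were given for 8 of the 10 members, 12 windows in all on GRCm38.p6. Those of Erg, called up with Dox in myeloid progenitors, and of Etv2, the one member called down with Dox, are printed here. They run from 5′ to 3′ on the strand of the gene, and were chosen since the members' changes differ in direction and stage. Erg has 3 windows on the minus strand, A at chr16:95459299-95459598, B at chr16:95530316-95530615 and C at chr16:95586544-95586843, and Etv2 has 1 on the minus strand at chr7:30635803-30636102. Capitals mark a match, and both strands were searched. For RUNX factors the letters were TGTGGT. For ETS factors they were GGAAGT. The GATA letters were AGATAA.
Erg window A: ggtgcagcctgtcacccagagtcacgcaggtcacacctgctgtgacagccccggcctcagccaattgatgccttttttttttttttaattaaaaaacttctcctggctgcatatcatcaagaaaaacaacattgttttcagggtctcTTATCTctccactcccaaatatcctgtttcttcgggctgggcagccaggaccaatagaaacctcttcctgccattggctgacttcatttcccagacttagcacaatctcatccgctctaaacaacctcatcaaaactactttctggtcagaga
Erg window B: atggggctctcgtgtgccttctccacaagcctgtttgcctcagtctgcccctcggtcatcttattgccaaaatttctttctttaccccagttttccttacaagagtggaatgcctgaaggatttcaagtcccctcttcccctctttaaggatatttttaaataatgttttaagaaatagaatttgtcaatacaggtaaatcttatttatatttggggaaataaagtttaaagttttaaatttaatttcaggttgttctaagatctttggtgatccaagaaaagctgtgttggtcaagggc
Erg window C: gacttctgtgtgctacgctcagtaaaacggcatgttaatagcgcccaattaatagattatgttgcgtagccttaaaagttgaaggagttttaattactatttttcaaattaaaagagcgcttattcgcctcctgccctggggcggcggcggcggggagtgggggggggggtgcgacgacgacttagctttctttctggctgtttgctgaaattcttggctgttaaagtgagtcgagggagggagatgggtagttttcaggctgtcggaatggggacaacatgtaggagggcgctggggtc
Etv2: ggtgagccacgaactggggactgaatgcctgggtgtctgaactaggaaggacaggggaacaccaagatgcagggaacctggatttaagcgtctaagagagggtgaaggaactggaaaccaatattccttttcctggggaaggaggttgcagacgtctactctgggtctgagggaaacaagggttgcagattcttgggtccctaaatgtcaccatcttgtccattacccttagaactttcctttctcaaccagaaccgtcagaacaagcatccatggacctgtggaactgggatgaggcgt
Erg window A held the 1 match to AGATAA among the 12 windows, read on the opposite strand as TTATCT, and 11.2% of all 32851 promoter windows of this length held a match. GGAAGT was found in 2 of the 12 windows, 1 of Elf1 and that of Gabpa, against 23.8% of all windows. TGTGGT was in 0 of the 12, against 16.8%. The letters are a description of these windows and the arrays do not tell from which start a transcript came.

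With Dox, Fli1, Ets1 and Erg rose and Etv2 fell, each in some of the stages, and the other 6 members passed the threshold in no Dox comparison. The threshold was an unadjusted P of at most 0.001 in limma and a change of at least 2-fold. In HE, 0 members were up and 1 was down, where 4.7% and 2.39% of all 15202 genes were called up and down. In HE2, 2 members were up and 0 down, against 5.17% and 2.05%. In progenitors 1 was up and 0 down, against 3.03% and 0.704%, and in myeloid progenitors 3 were up and 0 down, against 5.13% and 1.18%. With 10 members, the counts in HE and in progenitors lie within 1 gene of these shares. Among members on the side with 0 calls, unadjusted P was under 0.05 for Elf1 in HE, for Etv2 in HE2 and for none in progenitors or myeloid progenitors. The median log2 change over the 10 members was -0.20, 0.32, 0.22 and 0.65 along the stages, beside -0.01, -0.03, -0.04 and -0.02 over all genes tested.

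**Figure D1:**
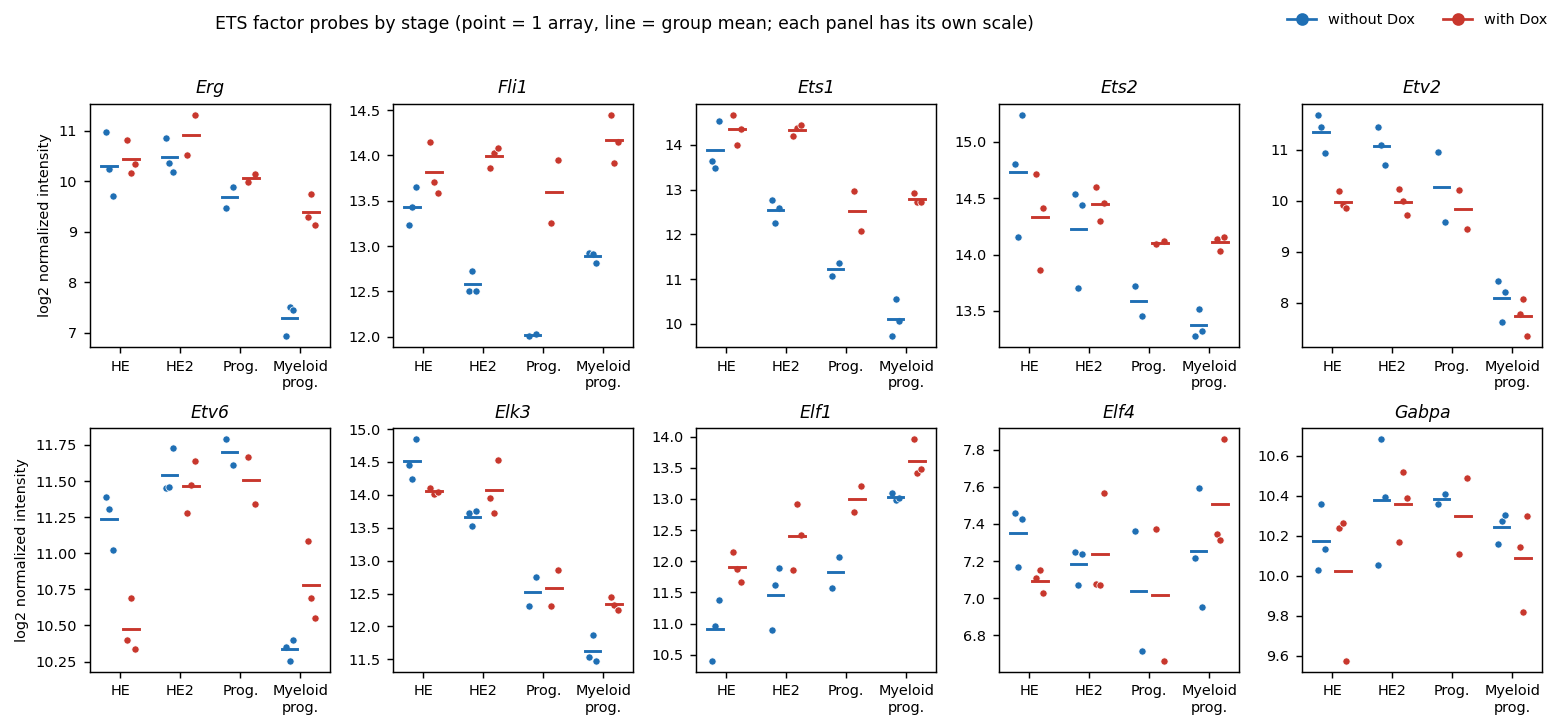
Normalized log2 intensity (vertical axes, scaled per panel) of the 10 members on each array, by stage (horizontal axes), without Dox in blue and with Dox in red, with lines at group means. Induced Fli1 and Ets1 arrays lie above all uninduced ones in HE2, progenitors and myeloid progenitors, Erg falls to 7.30 in uninduced myeloid progenitors and reaches 9.39 with Dox, and Gabpa stays between 9.58 and 10.68.

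Erg was bright in every group but 1. Its log2 intensity was 10.97, 10.23 and 9.71 on the uninduced HE arrays and 10.82, 10.16 and 10.34 on the induced ones. It was 10.86, 10.36 and 10.19 in uninduced HE2 and 10.51 and 11.31 in induced HE2, where the spot of array 2 was marked as an outlier and left out, so that 2 values stand there. It was 9.47 and 9.89 in uninduced and 9.98 and 10.14 in induced progenitors. Induced and uninduced arrays overlapped in HE and HE2, and in progenitors the induced arrays lay just above the fitted uninduced ones. The additional uninduced progenitor array, on slide 3 and not fitted, had Erg at 10.23, above both induced progenitor arrays. In myeloid progenitors Erg was 6.94, 7.51 and 7.46 without Dox and 9.29, 9.74 and 9.13 with it, a gap wider than the spread of either group. The log2 change with Dox there was 2.08 ± 0.31 (SE; 4.24-fold; adjusted P = 1.55e-04, limma). The changes in HE, HE2 and progenitors were 0.13, 0.44 and 0.38, with 95% confidence intervals of -0.52 to 0.79, -0.29 to 1.17 and -0.42 to 1.18. A 2-fold decrease lay outside each interval. A 2-fold increase lay outside that of HE but inside those of HE2 and progenitors.

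Without Dox, Erg fell by 2.38 on the log2 scale from progenitors to myeloid progenitors (SE 0.35, adjusted P = 6.77e-05), with the uninduced progenitor arrays on slides 1 and 2 and the myeloid progenitors on slide 3. With slide as a block the estimate was -2.64 with a wider SE of 0.66, which missed the threshold. The additional array of uninduced progenitors, on the same slide as the myeloid progenitors, had Erg at 10.23, above all 3 of them, and their mean minus it was -2.93. With Dox the same step gave -0.67 (interval -1.40 to 0.06). In the order of group means only 2 neighbours were separated without overlap of their fitted arrays. These were induced from uninduced progenitors and induced from uninduced myeloid progenitors. With the additional array among the uninduced progenitors, the progenitor arrays overlap.

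Fli1 rose with Dox at 3 of the 4 stages. Its log2 intensity was 13.23, 13.43 and 13.65 on uninduced and 14.14, 13.71 and 13.59 on induced HE arrays, which overlapped, and the change of 0.38 ± 0.19 (interval -0.03 to 0.79) did not pass. In HE2 it was 12.50, 12.73 and 12.50 without Dox and 13.86, 14.03 and 14.09 with it. In progenitors it was 12.01 and 12.03 without and 13.25 and 13.95 with Dox. All induced arrays of HE2 and of progenitors were higher than all uninduced ones, by more than 1 on the log2 scale. In myeloid progenitors the values were 12.92, 12.91 and 12.82 without and 14.45, 13.92 and 14.15 with Dox, again without overlap. The log2 changes were 1.41 ± 0.19 in HE2 (adjusted P = 7.23e-05), 1.58 ± 0.24 in progenitors (adjusted P = 4.34e-04) and 1.29 ± 0.19 in myeloid progenitors (adjusted P = 1.51e-04, limma). Within slides the HE2 change was 1.24 on slide 1 and 1.56 on slide 2, and the progenitor change was 1.24 on slide 1, the only slide with both groups. With slide as a block it was 1.42 in HE2 and 1.22 in progenitors, both past the threshold, and in a fit of the 4 progenitor arrays alone the progenitor change of 1.58 was not called.

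Without Dox, Fli1 was 13.44 on average in HE and 12.58 in HE2, a step of -0.86 (adjusted P = 0.00751), and was 12.02 on average in progenitors and 12.88 in myeloid progenitors, a step of 0.86 (adjusted P = 0.00559). Both steps were under 2-fold. The second compares arrays of different slides, and it was 0.16 with slide as a block and 0.36 against the additional progenitor array on slide 3. With Dox the means were 13.81, 13.99, 13.60 and 14.17 along the 4 stages, and no neighbours in that order were separated without overlap. The 3 lowest groups of all 8 were uninduced myeloid progenitors, HE2 and progenitors, each separated from the next.

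Ets1, a factor of lymphoid and endothelial cells, had the largest change with Dox among the members. Its log2 intensity was 13.64, 13.48 and 14.53 on uninduced and 14.68, 14.00 and 14.36 on induced HE arrays, which overlapped. In HE2 it was 12.77, 12.26 and 12.59 without and 14.19, 14.37 and 14.43 with Dox. In myeloid progenitors it was 9.73, 10.55 and 10.06 without and 12.92, 12.72 and 12.73 with Dox. The induced arrays of HE2 and of myeloid progenitors were all higher, with gaps larger than the range of either group. The log2 changes were 1.79 ± 0.28 in HE2 (3.46-fold, adjusted P = 2.51e-04) and 2.68 ± 0.28 in myeloid progenitors (6.39-fold, adjusted P = 3.58e-06, limma), and 0.46 ± 0.28 in HE (interval -0.13 to 1.06). Within slides the HE change differed in sign, at 1.11 on slide 1 and -0.35 on slide 2.

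In progenitors Ets1 was 11.08 and 11.35 without and 12.97 and 12.08 with Dox. Both induced arrays were higher, and the change of 1.30 ± 0.35 (adjusted P = 0.0322) missed the threshold. Induced array 2, on slide 3, was the lower one. Without it the change was 1.75, within slide 1 it was 1.89, and with slide as a block it was 1.85, both fits past the threshold. Without induced progenitor array 1 it was 0.86, under 2-fold. Without Dox Ets1 fell by 1.34 from HE to HE2 (adjusted P = 0.00439) and by 1.32 from HE2 to progenitors (adjusted P = 0.0111). The HE to HE2 fall was -1.02 without uninduced HE array 3 and -1.20 without uninduced HE2 array 2, and was then not called. The HE2 to progenitors fall lost its call without any 1 of uninduced HE2 arrays 1 and 3 or uninduced progenitor arrays 1 and 2, with values from -1.46 to -1.19. With Dox the HE to HE2 step was -0.02 (interval -0.61 to 0.58), and the HE2 to progenitors step was -1.81 (adjusted P = 6.79e-04), or -1.37 without induced progenitor array 2 and -1.23 with slide as a block, neither of which was called.

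Ets2, a target of RAS and MAP kinase signalling, is the closest relative of Ets1 among the members and passed the threshold nowhere. Its means lay between 13.37 in uninduced myeloid progenitors and 14.73 in uninduced HE. In myeloid progenitors it was 13.28, 13.52 and 13.32 without Dox and 14.14, 14.03 and 14.15 with it. The induced arrays were all higher, by 0.74 on average (interval 0.19 to 1.28, adjusted P = 0.0709). The changes in HE, HE2 and progenitors were -0.40, 0.23 and 0.51, with adjusted P values of 0.371 and above.

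Etv2 was the one member called down with Dox. Its log2 intensity was 11.69, 11.45 and 10.94 on uninduced and 10.19, 9.91 and 9.85 on induced HE arrays. In HE2 it was 11.45, 11.10 and 10.703 without and 10.24, 10.001 and 9.72 with Dox. The induced arrays were lower at both stages without overlap. The log2 change was -1.38 ± 0.33 in HE (adjusted P = 0.00728), which was called, and -1.10 ± 0.33 in HE2 (adjusted P = 0.0282), which was not. The HE call was lost without any 1 of uninduced arrays 1 and 2 or of the 3 induced arrays, with values from -1.48 to -1.21. Within slides the HE change was -1.38 on slide 1 and -1.06 on slide 2, and the HE2 change was -1.04 and -0.84. In progenitors the values were 10.97 and 9.59 without and 10.21 and 9.45 with Dox, and in myeloid progenitors 8.44, 7.63 and 8.21 without and 7.77, 8.08 and 7.35 with it. Induced and uninduced arrays overlapped at both of these stages, with changes of -0.45 and -0.36.

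Etv2 was lowest in the myeloid progenitors whether Dox was given or not. It fell by 2.19 on the log2 scale from progenitors without Dox (adjusted P = 2.34e-04) and by 2.10 with Dox (adjusted P = 6.45e-04). With slide as a block these were -1.74, not called, and -1.72, called. Without uninduced progenitor array 1 the first was -1.50, and without induced progenitor array 1 the second was -1.72, neither called. Within slide 3 the induced step was -1.72, and the additional uninduced progenitor array lay at 9.69, above the mean of 8.09 of the uninduced myeloid progenitors.

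**Figure D2:**
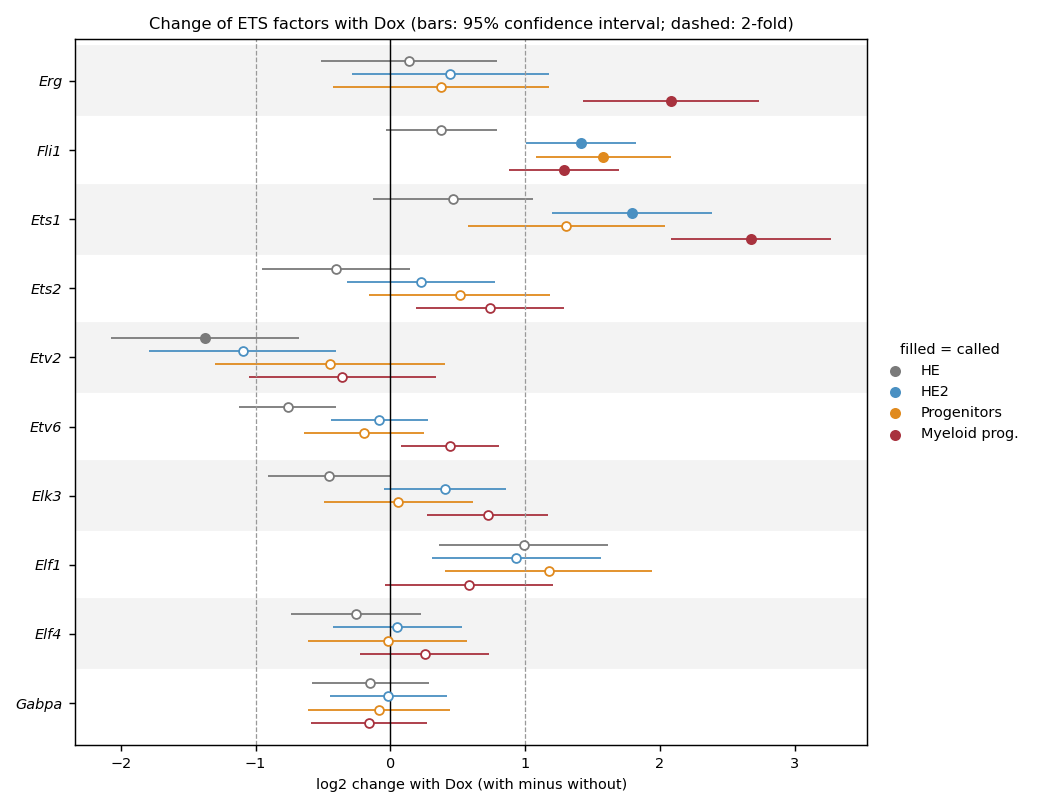
Log2 change with Dox (horizontal axis) of each member at the 4 stages with 95% confidence intervals, filled where called. Fli1 is called at 3 stages, Ets1 at 2, Erg in myeloid progenitors and Etv2 in HE, and the Gabpa and Elf4 intervals cross 0 at every stage.

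Etv6, the repressor also known as TEL, lay lower with Dox at the first stage and higher at the last. Its log2 intensity was 11.39, 11.31 and 11.02 on uninduced and 10.40, 10.69 and 10.34 on induced HE arrays. In myeloid progenitors it was 10.35, 10.26 and 10.40 without and 11.09, 10.69 and 10.55 with Dox. The induced arrays were all lower in HE and all higher in myeloid progenitors. The changes of -0.76 ± 0.17 (adjusted P = 0.00462) and 0.44 ± 0.17 (adjusted P = 0.103) were both under 2-fold. From HE to HE2 with Dox Etv6 went from a mean of 10.48 to 11.46, a step of 0.99 (adjusted P = 0.00163) with all arrays higher, which was just under 2-fold and so not called. Without induced HE array 2 this step was 1.09 and without induced HE2 array 1 it was 1.08, and it was then called. Without Dox it fell by 1.36 from progenitors to myeloid progenitors (adjusted P = 3.94e-05). With slide as a block this was -1.01 and not called, while on slide 3 the additional progenitor array lay at 11.61, above all 3 uninduced myeloid progenitor arrays.

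Elk3, a ternary complex factor that partners serum response factor, was lower in progenitors than in HE2. It was 13.72, 13.52 and 13.75 in uninduced HE2 and 12.31 and 12.75 in uninduced progenitors, a step of -1.14 ± 0.24 (adjusted P = 0.00444). It was 13.95, 13.73 and 14.54 in induced HE2 and 12.31 and 12.86 in induced progenitors, a step of -1.49 ± 0.24 (adjusted P = 3.58e-04). The progenitor arrays were all lower than the HE2 arrays both without and with Dox. Without uninduced progenitor array 1 the first step was -0.92 and not called. No Dox change of Elk3 was called, and the closest was 0.72 in myeloid progenitors (interval 0.27 to 1.17, adjusted P = 0.0310), where all induced arrays were higher.

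Elf1, an ETS factor active in lymphoid and myeloid cells, lay higher with Dox by 0.99, 0.93, 1.17 and 0.58 along the stages, and none of these was called. The adjusted P values were 0.0296, 0.0373, 0.0708 and 0.235. In HE the values were 10.41, 10.96 and 11.37 without and 12.15, 11.88 and 11.67 with Dox, without overlap. In HE2 uninduced array 3, at 11.89, lay above induced array 1, at 11.86. Elf1 was the member whose highest mean (13.62) was in induced and whose next (13.03) was in uninduced myeloid progenitors, and its lowest (10.91) was in uninduced HE. From uninduced progenitors to uninduced myeloid progenitors the step was 1.21 (adjusted P = 0.00981), short of the threshold.

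Elf4 and Gabpa did not change by the threshold in any of the 14 comparisons. Elf4 had group means between 7.02 and 7.51 and arrays from 6.66 to 7.86, and its Dox changes ran from -0.26 to 0.25. Gabpa had group means between 10.03 and 10.38, and its Dox changes were -0.15, -0.02, -0.08 and -0.16 along the stages. The 95% confidence intervals of Gabpa reached from -0.58 to 0.28 in HE, -0.45 to 0.42 in HE2, -0.61 to 0.44 in progenitors and -0.59 to 0.27 in myeloid progenitors, so that a 2-fold change with Dox lay outside each. For both genes the arrays of all 7 pairs of neighbouring groups in the order of means overlapped.

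Across stages without Dox, 1 member was called from HE to HE2 (Ets1), 2 from HE2 to progenitors (Ets1 and Elk3) and 3 from progenitors to myeloid progenitors (Erg, Etv2 and Etv6), and all 6 were falls. The shares of all genes called in either direction were 5.07%, 5.39% and 13.9%. With Dox, the counts were 0, 2 (Ets1 and Elk3) and 1 (Etv2), all falls, beside 3.1%, 7.36% and 7.37%, and Etv6 alone had an unadjusted P under 0.05 in the step with 0 calls. The Dox comparisons and the stage comparisons share arrays, so that these values are given side by side and are not independent of each other. With slide as a block, 0 members were called from progenitors to myeloid progenitors without Dox. No slide held fitted arrays of both these groups. That fit therefore links them only through the induced progenitors, with arrays on slides 1 and 3, and can hardly tell stage from slide. Why the calls were lost was not tested.

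Differences of the Dox response between stages were tested as interaction terms. Myeloid progenitors differed from the early stages in medium and in the timing of Dox and of the sort too, which cannot be told apart from stage. From HE to myeloid progenitors the response rose by 1.95 for Erg (SE 0.44, adjusted P = 0.00976), by 2.21 for Ets1 (SE 0.40, adjusted P = 0.00182) and by 1.21 for Etv6 (SE 0.24, adjusted P = 0.00432), so that 3 members were called where 4.72% of all genes were. Fli1 differed by 0.91 (adjusted P = 0.0561) and Elk3 by 1.18 (adjusted P = 0.0223) without passing, though Elk3 passed in 10 of 29 alternatives, among them slide as a block, at 1.25, and a fit of only these groups. Between HE2 and HE 0 members were called, with Ets1 at 1.33 and Fli1 at 1.04 (adjusted P values of 0.164 and 0.0941), against 1.34% of all genes. Between progenitors and HE2 the count was 0 against 0.645%, and between myeloid progenitors and progenitors it was 0 against 1.5%, with Erg at 1.71 (adjusted P = 0.116) and Ets1 at 1.37 (adjusted P = 0.178). Unadjusted P was under 0.05 for 4, 0 and 3 members in these last 3 terms. The Erg difference between myeloid progenitors and HE kept its direction without each array, and was between 1.62 and 1.90 with P above 0.001 without uninduced HE array 1, induced HE array 2 or 3, uninduced myeloid progenitor array 1 or induced myeloid progenitor array 2.

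Of the members, 6 had more than 1 probe. The second probes of Erg and Ets1 rose with Dox in myeloid progenitors by 1.87 and 2.55 and were called, beside 2.08 and 2.68 for the representing probes. In HE2 the second Ets1 probe changed by 1.48 and was not called, since its standard error was 0.50. The second Etv2 probe changed by -1.16 in HE and by -1.46 in HE2, and was called at neither stage. Both Etv2 probes fell from progenitors to myeloid progenitors past the threshold, without and with Dox. The Ets1 probes disagreed in that same step without Dox, at -1.10 and 0.23, neither called, and with slide as a block the representing probe was at -0.11, while on slide 3 its myeloid progenitor and additional progenitor arrays overlapped. A further Elk3 probe fell from HE2 to progenitors by 1.03 without and by 1.52 with Dox, both called, and the third, dimmer one changed by -0.70 and -0.55 and was not called.

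**Figure D3:**
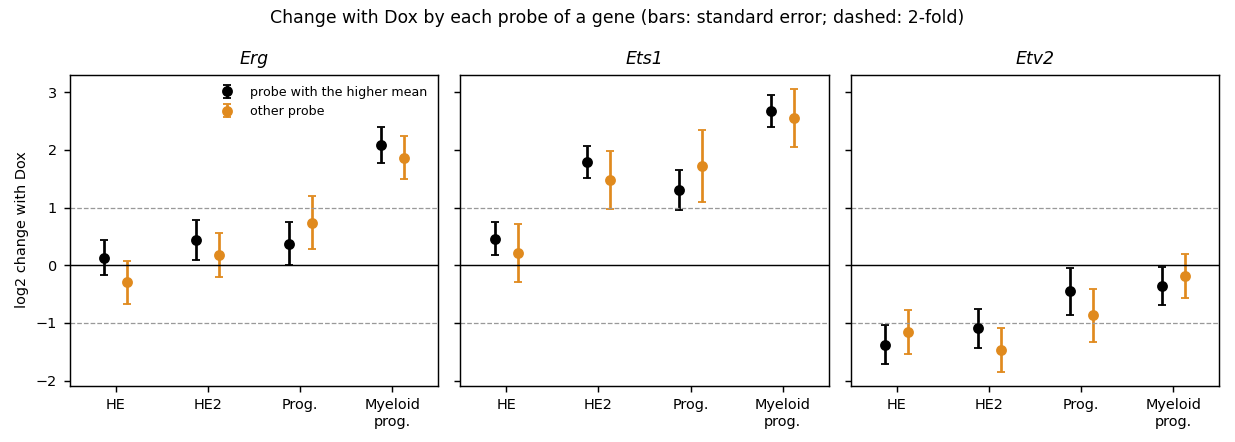
Log2 change with Dox (vertical axis) at the 4 stages by each of the 2 probes of Erg, Ets1 and Etv2, with standard errors. The probes of a gene point the same way in HE2, progenitors and myeloid progenitors, and in HE the Erg probes lie on either side of 0.

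The other ETS genes numbered 16, of which 13 were expressed and tested. With Dox, 0 of the 13 were called in HE, 1 up and 1 down in HE2, 1 down in progenitors and 1 up in myeloid progenitors. Of all genes tested, 4.7% were up and 2.39% down in HE, and 5.17% up and 2.05% down in HE2. The share down in progenitors was 0.704%, and that up in myeloid progenitors was 5.13%. Etv1, of the PEA3 group, rose by 1.58 ± 0.30 in HE2 and by 1.64 ± 0.30 in myeloid progenitors. Spi1, the gene of PU.1, fell by 2.73 ± 0.37 in HE2, fell by 2.23 ± 0.45 in progenitors and was at -1.39 in myeloid progenitors, so that its calls and those of Fli1 in HE2 and progenitors were of opposite sign. It was well above background on only 2 of the 3 induced HE2 arrays. GABPB subunits, Gabpb1 and Gabpb2, changed with Dox by -0.31 to 0.28 over the 4 stages and neither was called.

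Of 9 genes that encode partners of ETS factors at blood cell enhancers, Lmo2 rose by 1.06 ± 0.24 in HE, Lyl1 fell by 2.50 ± 0.25 in HE and by 1.44 ± 0.25 in HE2, and Gata2 rose by 1.26 ± 0.29 in myeloid progenitors. No other of them was called in a Dox comparison. Runx1 had log2 means of 10.76, 13.04, 14.20 and 12.49 without and 11.50, 12.74, 14.10 and 12.30 with Dox along the stages, with changes from -0.29 to 0.75. Tal1, the gene of SCL, was higher with Dox by 0.81 in HE and by 0.43, 0.35 and 0.11 later.

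Endothelial genes known to be bound by ETS factors rose with Dox, most of them in myeloid progenitors. Of 16 such genes, 2 were up and 1 down in HE, 6 up in HE2, 8 up in progenitors and 12 up and 1 down in myeloid progenitors. Their median log2 change was 0.16, 1.00, 1.53 and 2.18 along the stages, against the medians near 0 of all genes given above. Robo4, a guidance receptor of endothelium, changed by 1.72 ± 0.34, 2.64 ± 0.34, 3.09 ± 0.41 and 3.35 ± 0.34 and was called at each stage. Icam2, an adhesion molecule, rose by 1.88, 3.21 and 2.97 at the 3 later stages, and Emcn (endomucin) by 2.84, 3.42 and 2.97. The Emcn probe was well above background on 1 of the 2 uninduced progenitor arrays. Of the receptor genes Flt1, Flt4, Kdr and Tek, Flt4 rose by 1.23 ± 0.31 in HE and 1.29 ± 0.31 in HE2, Flt1 by 1.33 ± 0.26 in HE2 and 1.58 ± 0.32 in progenitors, and Kdr and Tek by 2.24 ± 0.30 and 3.07 ± 0.72 in myeloid progenitors. Mean Tek was also higher with Dox in HE2, at 12.41 against 10.67, and in progenitors, at 11.10 against 8.67. Mean Kdr was higher there too, at 15.06 against 13.94 and 14.09 against 12.76. In HE2 the Tek SD over arrays was 0.95 without and 1.27 with Dox. Esam, an adhesion molecule, rose by 1.38 ± 0.24 in HE2 and 1.83 ± 0.29 in progenitors, and Nos3, the endothelial nitric oxide synthase, by 2.12 ± 0.50 in progenitors. Esam, Flt1, Flt4 and Nos3 rose in myeloid progenitors too, by 2.16, 1.64, 1.35 and 2.20. Cdh5, the gene of VE-cadherin, and Eng (endoglin) were called only in myeloid progenitors, at 1.69 ± 0.26 and 2.94 ± 0.53. Vwf, shared by endothelium and megakaryocytes, went the other way and fell by 2.86 in HE and by 1.23 in myeloid progenitors, while it rose by 1.52 in progenitors. Tek, Cdh5, Kdr, Pecam1 and Emcn also make up the endothelial marker list, whose level moved with Dox as given above, and the part of such cells in the changes of the members was not tested. Without single progenitor arrays, uninduced 2 or induced 2, 4 of the 16 were up in progenitors, as with slide as a block, and 10 to 11 were up in myeloid progenitors without single arrays of that stage.

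**Figure D4:**
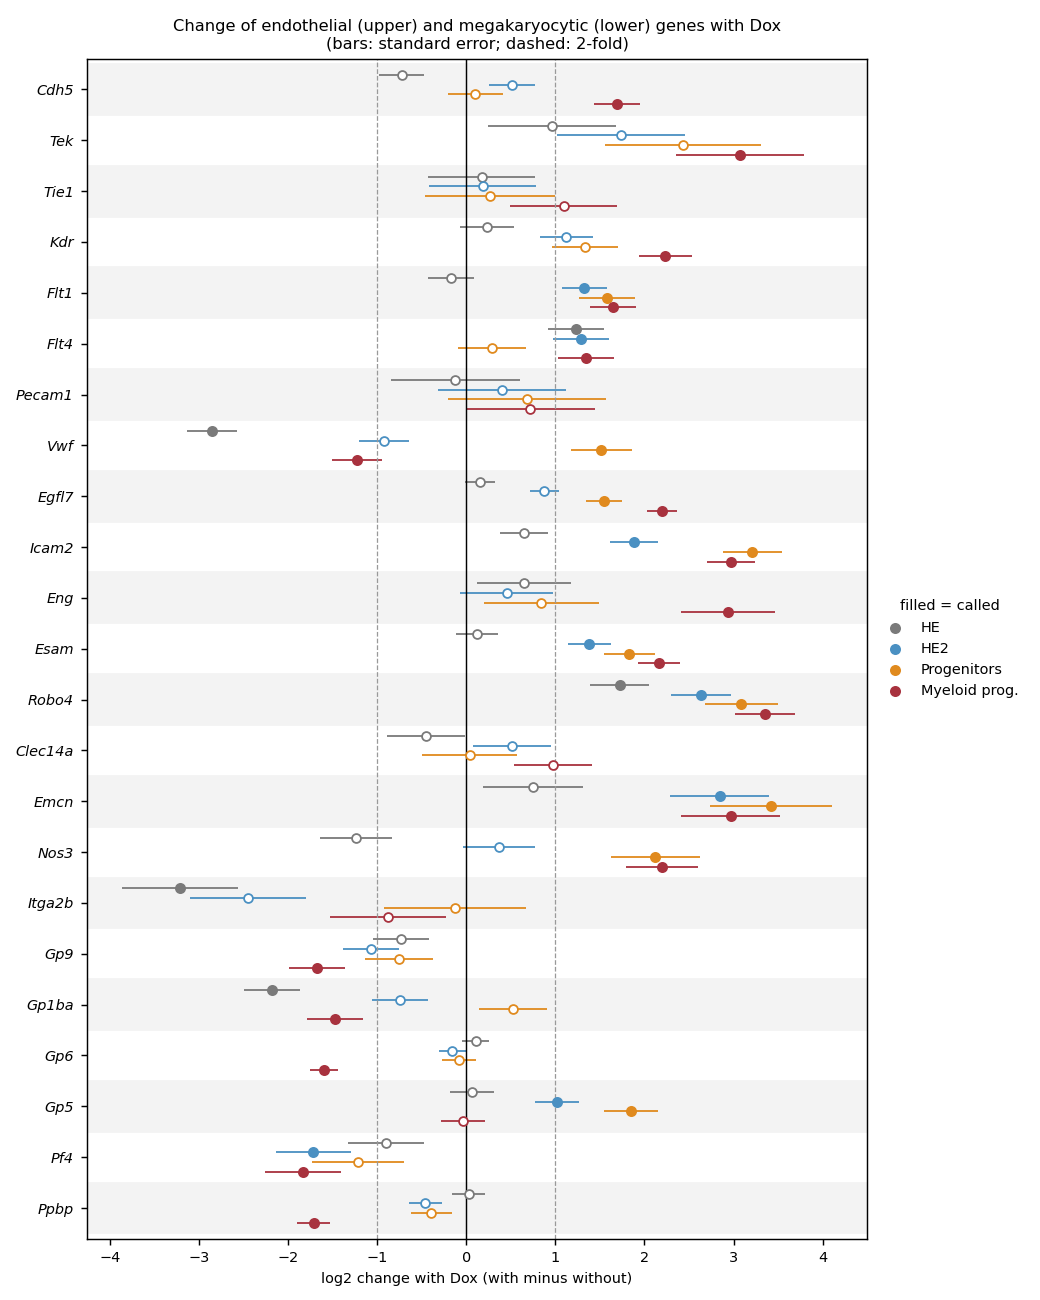
Log2 change with Dox (horizontal axis) of 16 endothelial genes, Cdh5 to Nos3, and of 7 megakaryocytic genes, Itga2b to Ppbp, at the 4 stages, with standard errors and filled points where called. Endothelial genes shift to the right from HE to myeloid progenitors, with 12 called up in the latter, while 5 of the 7 megakaryocytic genes are called down there.

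Megakaryocytic genes bound by ERG, FLI1 and GATA1 were called down in myeloid progenitors more than up. Of 7 such genes, 0 were up and 2 down in HE, 1 up and 1 down in HE2, 1 up and 0 down in progenitors and 0 up and 5 down in myeloid progenitors, with median log2 changes of -0.73, -0.75, -0.13 and -1.599. Over the alternative fits, the number down was 1 to 3 in HE, 0 to 3 in HE2, 0 to 1 in progenitors and 3 to 5 in myeloid progenitors. In that stage the changes of Pf4 and Gp9, of platelets, were -1.84 ± 0.43 and -1.68 ± 0.31, that of Gp6 was -1.599 ± 0.16, that of Ppbp -1.72 ± 0.19 and that of Gp1ba -1.47 ± 0.32, all called. Gp5 rose by 1.02 in HE2 and by 1.85 in progenitors and changed by -0.04 in myeloid progenitors. Gp1ba was also called in HE, at -2.19 ± 0.32, and Pf4 in HE2, at -1.72 ± 0.43. Itga2b, called at -3.21 in HE, encodes the CD41 by which the early stages were sorted.

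Across the fitted arrays, the 5 genes whose log2 values were most like those of Erg were Kif3a, Gchfr, Zfp503, Bmp4 and Enho, with Pearson correlations of 0.95, 0.94, 0.93, 0.93 and 0.93 over 21 arrays. For Fli1 they were Ndel1, Unc13b, Mtmr12, Runx1t1 and Hbp1, with 0.93, 0.93, 0.93, 0.92 and 0.92 over 22 arrays. These arrays fall into 8 groups and 3 slides, and the correlations describe the shared pattern only.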

How the data were processed

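Agilent SurePrint G3 mouse arrays, each with 1 dye, measured the RNA of 23 samples. The authors deposited spot intensity as read by Feature Extraction (10.7.3.1 in the file headers, 10.7.1.1 in the submitters' processing notes), not normalized between arrays, and also log2 values per array that they had background-corrected and quantile normalized, used here as an alternative. From the median intensities, background was corrected by normexp (offset 16), 3671 control spots and spots marked as outliers (100 to 346 per array) were left out, and the 23 arrays were quantile normalized. Of 55681 probes, 26582 had a symbol through the RefSeq table of GRCm38.p6, which served for names and promoters only, since the array was annotated on another build. Each gene was taken through its brightest probe. Genes that reached a log2 value of 6.5 on any array were kept.

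Group means of 22 arrays were estimated by limma 3.58.1 (lmFit, then eBayes) in R 4.3.3, with 14 residual degrees of freedom (13 for Erg, which had a missing spot). The threshold, P at most 0.001 and 2-fold, and the offset follow the study's methods; adjusted P values are Benjamini-Hochberg over all 15202 genes. The fit was tested on simulated data. Same-numbered uninduced HE and HE2 arrays deviated together (correlations 0.39, 0.80 and 0.61), so the labels' numbers were taken to pair these. The rule asked for 3 pairs or more and for correlations all past a small positive bound, and no other comparison met it. Comparisons with progenitors had 2 pairs and could not meet it. Their correlations were 0.23 for Dox, 0.38 and 0.20 from HE2 without Dox and 0.16 and 0.12 with it. From progenitors to myeloid progenitors they were negative. Arrays 1 and 2 of both groups lay on slide 1 and arrays 3 on slide 2, so that a shared culture and a shared slide cannot be told apart. The main fit did not use the pairing. The members and gene lists were chosen with earlier results of these data known. Genes of the lists are named where they pass in a Dox comparison, at most 6 per list and comparison by size of change. Others were chosen after their values were seen (Tal1, Cdh5, the GABPB genes, Vwf beyond HE, and Tek and Kdr in HE2 and progenitors). P values measure the spread between arrays, and their number limits the precision. Besides leaving out each array, 17 alternatives were run, 1 of them chosen after seeing the data. The Fli1 and Ets1 promoters were not analysed here. Columns of values without a sample numbered 0. One gene of the megakaryocytic list is not reported here, and the list was counted without it.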

Additional observations from a re-analysis of the deposited data

Results flagged for a closer look

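The response to Dox differed between myeloid progenitors and HE for 3 members, by a test of the difference itself (interaction term, limma). Medium and the timing of Dox and of the sort also differed between these groups and cannot be told apart from stage. The difference in log2 change, myeloid progenitors minus HE, was 1.95 for Erg (adjusted P = 0.00976), with a change of 0.13 in HE and 2.08 in myeloid progenitors. It was 2.21 for Ets1 (adjusted P = 0.00182), with changes of 0.46 and 2.68. It was 1.21 for Etv6 (adjusted P = 0.00432), where all 3 induced arrays were lower in HE and all 3 were higher in myeloid progenitors.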

How the results depend on the processing

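Each member's change was recomputed under every alternative. Of 19 called values, 7 were called under all alternatives run and 0 reversed. The 7 were Fli1 and Ets1 with Dox in HE2, Erg, Fli1 and Ets1 with Dox in myeloid progenitors, and the differences of Ets1 and Etv6 between myeloid progenitors and HE. Scaling to the 75th percentile moved the median of all genes by up to 0.10 and the processed signal by up to 0.15, both on the log2 scale, and by less elsewhere. The cause of a changed count was not tested, apart from what a setting does by construction.

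The following counts of called members moved by 1.5 times or more, or to or from 0, with the reported count in brackets. Dox in HE (1) gave 0 with the processed signal and with the mean of a gene's probes and 3 at an adjusted P of 0.05 alone. Dox in HE2 (2) gave 4 at an adjusted P of 0.05 alone and 3, with Etv2, at an adjusted P of 0.05 and 2-fold, at 2-fold alone and with the replicate block. Dox in progenitors (1) gave 2 at an adjusted P of 0.05, with or without 2-fold, 3 at 2-fold alone, 0 in a fit of these groups only, 2 with the additional array and 2 with slide as a block. HE to HE2 without Dox (1) gave 0 with the mean of probes and in a fit of these groups only, and 3 at an adjusted P of 0.05 alone. HE to HE2 with Dox (0) gave 1 with 75th percentile scaling, with stages normalized apart, with the processed signal and at an adjusted P of 0.05 alone. HE2 to progenitors without Dox (2) gave 0 with the mean of probes and 1 in a fit of these groups only and with the additional array. HE2 to progenitors with Dox (2) gave 1 with the mean of probes, in a fit of these groups only and with slide as a block. Progenitors to myeloid progenitors without Dox (3) gave 5 with 75th percentile scaling, the processed signal, an adjusted P of 0.05 and 2-fold, 2-fold alone and the additional array, 7 at an adjusted P of 0.05 alone and 0 with slide as a block. With Dox (1) it gave 2 at an adjusted P of 0.05 alone. Differences of the response gave, for HE2 and HE (0), 1 with an offset of 50 and with slide as a block and 2 at 2-fold alone. For myeloid progenitors and progenitors (0) they gave 2 at 2-fold alone and 1 in a fit of these groups only and with the additional array, and for myeloid progenitors and HE (3) 6 at 2-fold alone. Smaller moves were to 4 for Dox in myeloid progenitors (3) at an adjusted P of 0.05 alone, with Elk3, and to 4 for the difference between myeloid progenitors and HE. The latter added Elk3 with an offset of 50, the deposited values, no filter, an adjusted P of 0.05 with or without 2-fold, a fit of these groups only and slide as a block, and Ets2 with 75th percentile scaling.

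Leaving out single arrays gave 0 to 1 for Dox in HE, 1 to 2 in progenitors, 0 to 1 from HE to HE2 without and with Dox, 0 to 2 from HE2 to progenitors without and 1 to 2 with Dox, and 2 to 3 without and 0 to 1 with Dox from progenitors to myeloid progenitors. It gave 0 to 1 for the difference between HE2 and HE and 2 to 5 for that between myeloid progenitors and HE, the 5 without uninduced HE array 2. Dox in HE2 and in myeloid progenitors kept counts of 2 and 3.

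With the replicate number as a block, HE2 to progenitors without Dox gave 1 called member, since Ets1 changed by -1.26, not called. Etv2 with Dox in HE2, at -1.10, passed, and no other call of a member changed with this block. For the uninduced HE and HE2 arrays, which the numbers were taken to pair, Ets1 changed by -1.34 with the block and was called. Keeping outlier spots, an alternative added after seeing the data, changed no call, and the step to myeloid progenitors could not be fitted where stages were normalized apart.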
